A study of Homo sapiens with 6 samples.

Results

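The regions described here are the strong binding sites of PPARG in the esophageal adenocarcinoma cell line Eso26 at which no PPARG peak was listed in a second line, OE33. Members were the peaks of the Eso26 list on chromosomes 1 to 22 and X with a fold enrichment of 10 or more and not a single base of overlap with any OE33 peak. By this rule 1149 of the 7010 Eso26 peaks were members, of 6935 on those chromosomes. The members were thus chosen by fold enrichment and overlap, and both are given below as a description without a test. The study profiled PPARG by chromatin immunoprecipitation and sequencing (ChIP-seq) in both lines, and RNA in each line after transfection with a non-silencing siRNA (control) or an siRNA against PPARG (siPPARG). The medium was RPMI-1640 for Eso26 and DMEM for OE33, so line and medium cannot be told apart. The labels give the same transfection text, with Lipofectamine RNAiMAX, for the ChIP-seq samples, without saying which siRNA, if any, those cells received. Each of these 6 groups has 1 deposited data set, so nothing below has a replicate check and intervals cover counting error only. The OE33 list held 9652 peaks.

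PPARG is a ligand-activated nuclear receptor, the master regulator of fat cell differentiation, which binds DNA as a heterodimer with a retinoid X receptor (RXR). The pair recognises a direct repeat of the nuclear receptor core motif, usually in enhancers, and regulates genes of lipid storage and metabolism. Which of the many possible sites a nuclear receptor occupies differs widely between cell types, and lineage factors that open chromatin are known to shape that choice. The members were not assigned to genes and no sequence was read, since an hg19 genome and annotation were not used here. Positions are on hg19 and count from 1.

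Members rested on few ChIP fragments each. The deposited fold enrichment and p of a peak together fix the number of fragments covering its summit and the local background taken from the control, if the fold is (fragments + 1) / (background + 1) and p is the Poisson tail, as MACS2 computes them. All 7010 Eso26 and all 9652 OE33 peaks returned a whole number of fragments within 0.001 of the deposited −log10 p. The lowest background was 0.491 fragments in each list, which is taken here as the genome-wide level below which the caller lets no local value fall. By this measure the 2 lists were on almost the same scale of coverage. Members had between 14 and 46 fragments at the summit, with a median of 18 and quartiles of 16 and 22. Counting error is wide at such numbers: the exact Poisson 95% interval runs from 10.7 to 28.4 around 18 fragments, and from 33.7 to 61.4 around 46.

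**Figure D1:**
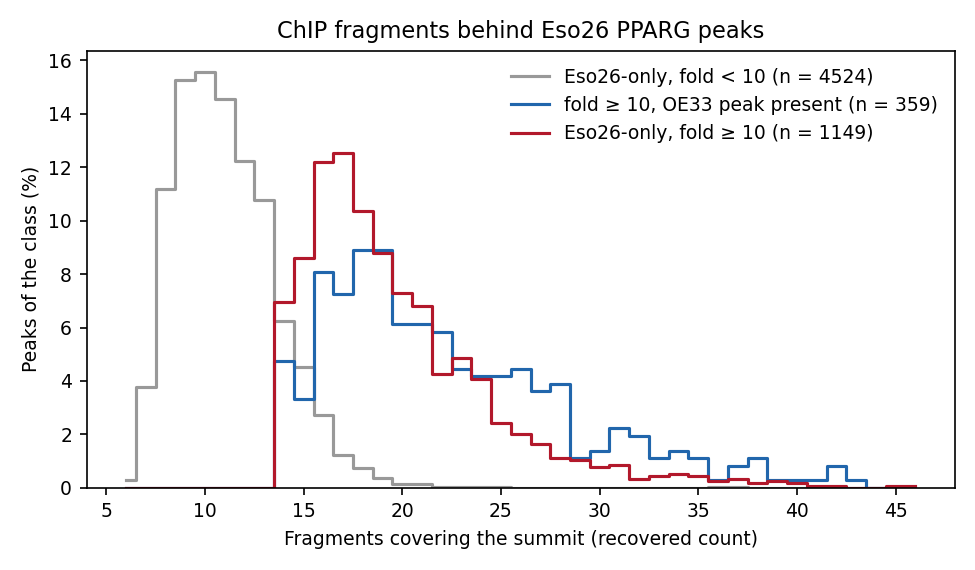
Share of Eso26 peaks (y axis, percent of each class) by the number of ChIP fragments covering the summit (x axis) for members (red), Eso26 peaks of fold 10 or more that overlap an OE33 peak (blue) and weaker Eso26 peaks without an OE33 peak (grey); 5 blue peaks and 1 grey peak above 46 fragments lie outside the axis. Members begin at 14 fragments with a median of 18, against a median of 21 for the blue class and 11 for the grey class.

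The strongest member lay at chr16:67465019-67465524. Its fold enrichment was 30.9 from 45 fragments (exact Poisson 95% interval 32.8 to 60.2), the fourth highest rank of the Eso26 list. The nearest OE33 peak was 231844 bases away and had 7 fragments. Next came chr1:236332312-236332680, only 369 bases wide, with 46 fragments and a fold of 28.8. Its nearest OE33 peak stood 112577 bases away. On chromosome 19, chr19:13106257-13106925 had 40 fragments and a fold of 27.5, with an OE33 peak 49357 bases away. A site at chr16:79632901-79633486 had 39 fragments, a fold of 26.8 and another Eso26 peak 587 bases away, with no OE33 peak for 1543935 bases. Of these 4 sites, the chromosome 19 one lay nearer to an OE33 peak than the members' median gap given below, and the other 3 lay farther.

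The other 6 of the 10 highest differed more in their surroundings. Both chr19:14200542-14201551 and chr22:38054711-38055349 had 38 fragments and a fold of 26.2. The first of them is a near miss of the rule, since an OE33 peak of 12 fragments began 156 bases beyond its edge, while the second was 16840 bases from an OE33 peak of 7 fragments. The site chr11:65810103-65810768 had 42 fragments over a raised background of 0.651, for a fold of 26.0, and lay 8815 bases from an OE33 peak. At chr7:45613794-45614583 the summit held 40 fragments (fold 24.96), and no other Eso26 peak lay within 345759 bases. The broad site chr3:126070624-126071879 spanned 1256 bases with 39 fragments (fold 24.6). The tenth, chr19:39055586-39056123, had 35 fragments (fold 24.1) and 2 further members shared that fold. Of the 10, 3 were on chromosome 19 and 2 on chromosome 16.

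The threshold falls in a dense part of the distribution. The lowest fold was shared by 7 members, among them chr2:230135844-230136158 and chr9:130374305-130374548, all with 17 fragments over a background of 0.798 and a fold of 10.01. Just outside stood chr7:98246595-98247157 with 15 fragments, a background of 0.600 and a fold of 9.998. The next peak outside was chr17:74070919-74071310 with 16 fragments and a fold of 9.99. With 1 fragment less, 221 members (19.2%) would have fallen below the threshold, and with 1 fragment more 282 of the 4524 weaker Eso26-only peaks would have reached it. Only 57 members had 30 or more fragments, and 319 had 16 or fewer.

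In width, members ran from 220 to 2644 bases with a median of 545 (order-statistic 95% interval 527 to 557). Weaker Eso26-only peaks were narrower, with a median of 327 bases (322 to 332). Between 300 and 400 bases lay 243 members, under 300 lay 11, and 93 spanned 1000 bases or more. The summit of members lay a median of 51.5 bases from the peak centre. Width grew with strength, from a median of 473 bases at 14 to 16 fragments through 528.5 at 17 to 19 and 581.5 at 20 to 24 to 675 at 25 to 29. At 30 to 46 fragments it was 669. Strong peaks that overlap an OE33 peak had medians of 480.5, 482.5, 577.5, 688.5 and 726.5 bases in the same bands, which lie on both sides of the members' medians. The widest member, chr8:144997534-145000177, covered 2644 bases with 35 fragments at its summit. It was followed by chr6:157098672-157100633 with 1962 bases and chr16:88599715-88601363 with 1649.

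**Figure D2:**
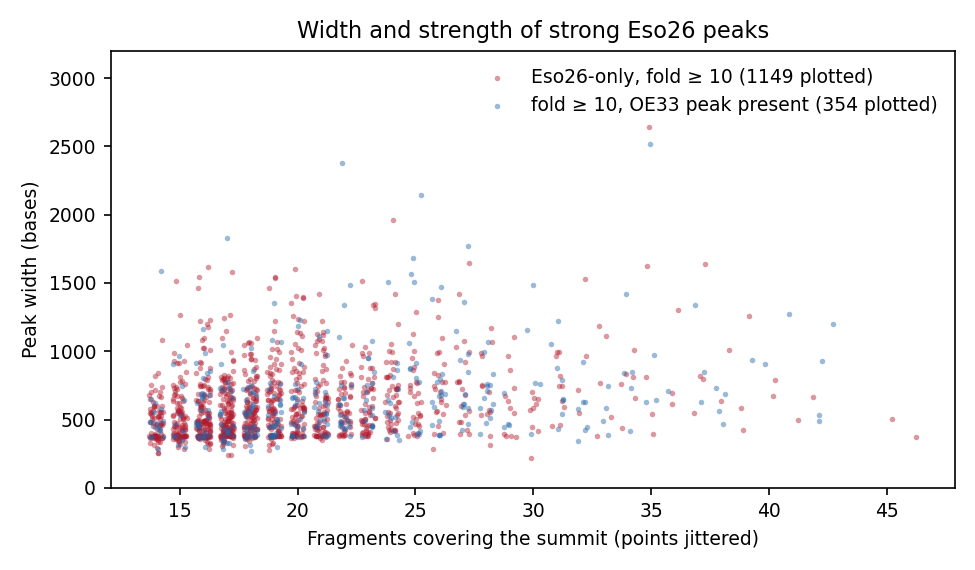
Peak width in bases (y axis) against fragments covering the summit (x axis, points jittered sideways) for the 1149 members (red) and for 354 Eso26 peaks of fold 10 or more that overlap an OE33 peak (blue; 5 above 46 fragments are not drawn). The classes lie over each other, and the member of 2644 bases stands at the top.

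Some members came as close pairs. In 14 pairs, 28 members in all, the partners lay within 1 kb of each other, with gaps of 172 to 870 bases. These were 2.44% of members (Wilson 95% interval 1.69 to 3.499). A member also lay within 1 kb of 2.25% (1.86 to 2.73) of weaker Eso26-only peaks and 1.39% (0.596 to 3.22) of strong shared peaks. The intervals overlap, and a member close by was seen in each of these classes. Each of the 14 pairs counts from both of its ends, so the 28 members are not independent. A difference between the classes was not tested. The closest pair was chr8:61590902-61591451 with 32 fragments and chr8:61591624-61592617 with 19. Another, chr18:25756750-25757070 (17 fragments) and chr18:25757606-25758094 (20 fragments), lay 535 bases apart and was among the 3 members farthest from any OE33 peak. Paired peaks may share fragments and are not separate observations. Most members stood alone: 269 of 1149 (23.4%, Wilson 95% interval 21.1 to 25.9) had another Eso26 peak within 10 kb, beside 25.04% of weaker Eso26-only peaks (23.8 to 26.3) and 21.2% of strong shared peaks (17.3 to 25.7). These shares overlap in their intervals. An Eso26 peak that OE33 shares lay within 10 kb of 29 members (2.52%, 1.76 to 3.60), beside 3.78% (3.26 to 4.38) of weaker Eso26-only peaks, whose interval overlaps that of the members, and 7.52% (5.22 to 10.7) of strong shared peaks.

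Strong Eso26 peaks were mostly absent from the OE33 list, the less so the stronger they were. Of 1508 peaks at fold 10 or more, 76.2% (Wilson 95% interval 74.0 to 78.3) had no OE33 peak, against 83.4% (82.3 to 84.3) of 5427 weaker peaks. By fold, the share was 78.4% (75.3 to 81.2) from 10 to 12 and 78.2% (74.2 to 81.8) from 12 to 15. It was 71.1% (65.2 to 76.4) from 15 to 20, 62.1% (50.1 to 72.9) from 20 to 25, and 7 of 14 above 25. Among the 50 highest Eso26 peaks, 25 were members. Under the mirrored rule, OE33 had 1669 strong peaks without an Eso26 peak, 82.5% (80.7 to 84.1) of its 2024 strong peaks.

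Absence from the OE33 list is not absence of binding. The weakest OE33 peaks had 5 fragments, which at the genome-wide background is a fold of 4.02, and no weaker peak was listed at that background. Over higher background the lowest OE33 fold was 2.91. Members had 14 fragments or more in Eso26. The reads under members in OE33 were not analysed here. At the 359 strong Eso26 peaks that do overlap an OE33 peak, the OE33 peak with the nearest summit had a median of 10 fragments (quartiles 8 and 18), and 245 of them had fewer than 14. Most of the overlap that kept a strong Eso26 peak out of the members was therefore with a weak OE33 peak.

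Few members lay next to a listed OE33 peak, and the rule had left out every peak that overlaps one. The median gap from a member to the nearest OE33 peak was 95974 bases (95% interval 87929 to 108188), beside 78573 (73924 to 82996) for weaker Eso26-only peaks. Strong OE33-only peaks were a median of 107541 bases (98200 to 118041) from the nearest Eso26 peak. Within 10 kb of an OE33 peak lay 146 members (12.7%, 10.9 to 14.8), within 100 kb 585 (50.9%, 48.0 to 53.8). For weaker Eso26-only peaks these shares were 15.1% (14.1 to 16.2) and 56.6% (55.2 to 58.0). Strong OE33-only peaks had an Eso26 peak within 10 kb in 9.41% (8.10 to 10.9) and within 100 kb in 48.1% (45.7 to 50.5). The 3 farthest members were chr19:30302481-30303376, with 21 fragments and no OE33 peak for 3229095 bases, and the chromosome 18 pair named above at 3220194 and 3219170 bases. OE33 has more peaks than Eso26, which shortens such gaps.

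**Figure D3:**
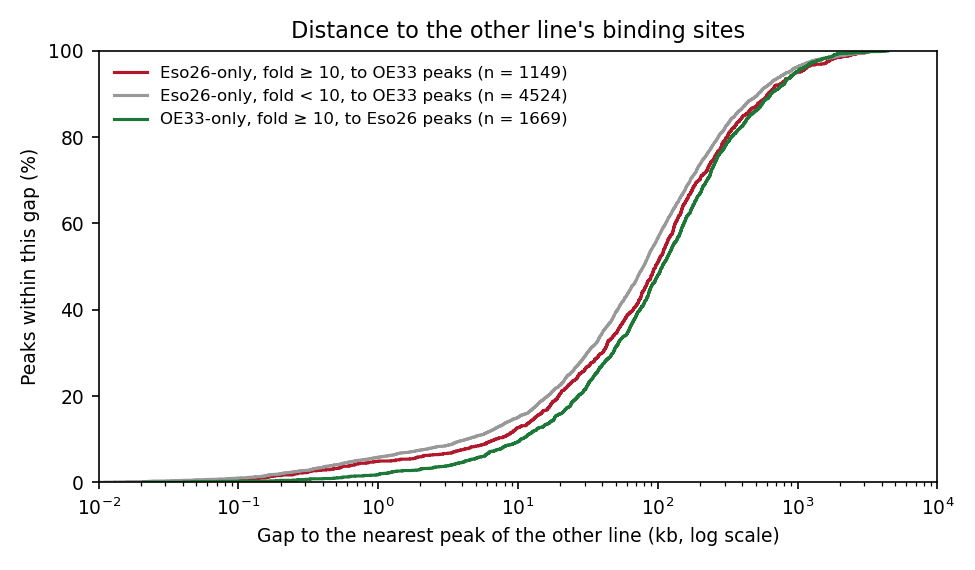
Share of peaks (y axis, percent) whose gap to the nearest peak of the other line is at most the value on the x axis (kb, log scale), for members (red), weaker Eso26-only peaks (grey) and strong OE33-only peaks (green). Of the members, 12.7% have an OE33 peak within 10 kb, and their median gap is 95974 bases.

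At the near end, 57 members (4.96%, 3.85 to 6.37) had an OE33 peak within 1 kb without overlap, at a median gap of 317 bases. So did 5.84% (5.19 to 6.56) of weaker Eso26-only peaks, and 1.86% (1.31 to 2.62) of strong OE33-only peaks had an Eso26 peak within 1 kb. The OE33 peaks near the 57 members had 6 to 85 fragments with a median of 11, and 9 of them had a fold of 10 or more. The 3 nearest members were chr14:32546024-32546512, 20 bases from an OE33 peak of 12 fragments, chr7:100291477-100291846 at 42 bases and chr20:60982077-60982515 at 60 bases. With 16, 16 and 17 fragments all 3 were members near the threshold. Strong OE33-only peaks lay within 1 kb of 8 members (0.696%, 0.353 to 1.37), beside 0.332% (0.201 to 0.546) of weaker Eso26-only and 1.11% (0.434 to 2.83) of strong shared peaks. Within 100 kb the shares were 15.3% (13.4 to 17.5), 16.03% (14.99 to 17.1) and 20.6% (16.75 to 25.1). The members' intervals overlap those of both classes at each of these distances.

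Members were unevenly spread over the chromosomes. Where their share was highest, both the control background and the overlap with OE33 peaks differed from those elsewhere. Chromosome 19 held 129 members, 11.2% of all, and 23.4% (20.1 to 27.1) of its 551 Eso26 peaks were members. The share was higher still on chromosome 18, with 46 of 151 (30.5%, 23.7 to 38.2), and was 28.6% (19.7 to 39.5) on chromosome 21, 23.9% (18.3 to 30.6) on X and 22.6% (17.9 to 28.1) on 22. It was lowest on chromosome 6, with 36 of 316 (11.4%, 8.34 to 15.4), and on 11 with 12.4% (9.36 to 16.3). On chromosome 18, 46 of 51 strong peaks had no OE33 peak (90.2%, 79.0 to 95.7). Its strongest members, chr18:77623643-77624468 with 26 fragments and chr18:5890855-5891583 and chr18:67067947-67068566 with 25 each, were all at the genome-wide background. On X, the 3 strongest likewise had 25 fragments each. A count of members against strong OE33-only peaks ran from 0.324 on chromosome 6 and 0.331 on 7 to 2.30 on 18, 2.32 on X and 2.63 on 19. The count of all Eso26 peaks against all OE33 peaks ran the same way, with 0.525 on 6, 0.416 on 7, 1.74 on 18, 1.66 on X and 1.65 on 19.

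The same 5 chromosomes had the largest shares of Eso26 peaks at the genome-wide background. Of the Eso26 peaks on chromosomes 18, 19, 21, 22 and X, 67.6% (64.9 to 70.1) were at the genome-wide level, and 85.3% (80.9 to 88.9) of the members there. On the other 18 chromosomes these shares were 16.7% (15.7 to 17.7) and 28.6% (25.7 to 31.8), and on chromosome 13 no peak was at that level. Across the 23 chromosomes the share of peaks that were members correlated with the share of peaks at that background (Pearson 0.82, Spearman 0.68). For strong OE33-only peaks under the mirrored rule the same correlation was near 0 (Pearson 0.042, Spearman 0.015). This is a description, since all chromosomes come from the same 2 libraries and the background is part of the fold. The members on the 5 chromosomes had a median of 17 fragments and the others 19. With a threshold of 17 fragments in place of the fold, chosen after seeing the data, the share on the 5 chromosomes was 16.1% (14.1 to 18.3) and elsewhere 13.3% (12.5 to 14.2), where the fold threshold gave 24.5% (22.2 to 27.0) and 14.9% (13.97 to 15.8). The correlations were then 0.16 and -0.032. Chromosome 18 still had the highest share, at 21.9% (16.01 to 29.1), and X came to 11.96% (8.03 to 17.4). Strong OE33-only peaks made up 16.7% (14.3 to 19.5) of OE33 peaks on the 5 chromosomes and 17.7% (16.9 to 18.5) on the others. The overlap part of the rule differed there too. An OE33 peak overlapped 10.9% (9.24 to 12.7) of Eso26 peaks on the 5 chromosomes and 19.8% (18.8 to 20.8) on the others. Of strong Eso26 peaks, 84.5% (80.4 to 87.9) and 73.6% (71.0 to 76.1) were members. The parts of background and overlap in the spread were not tested.

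**Figure D4:**
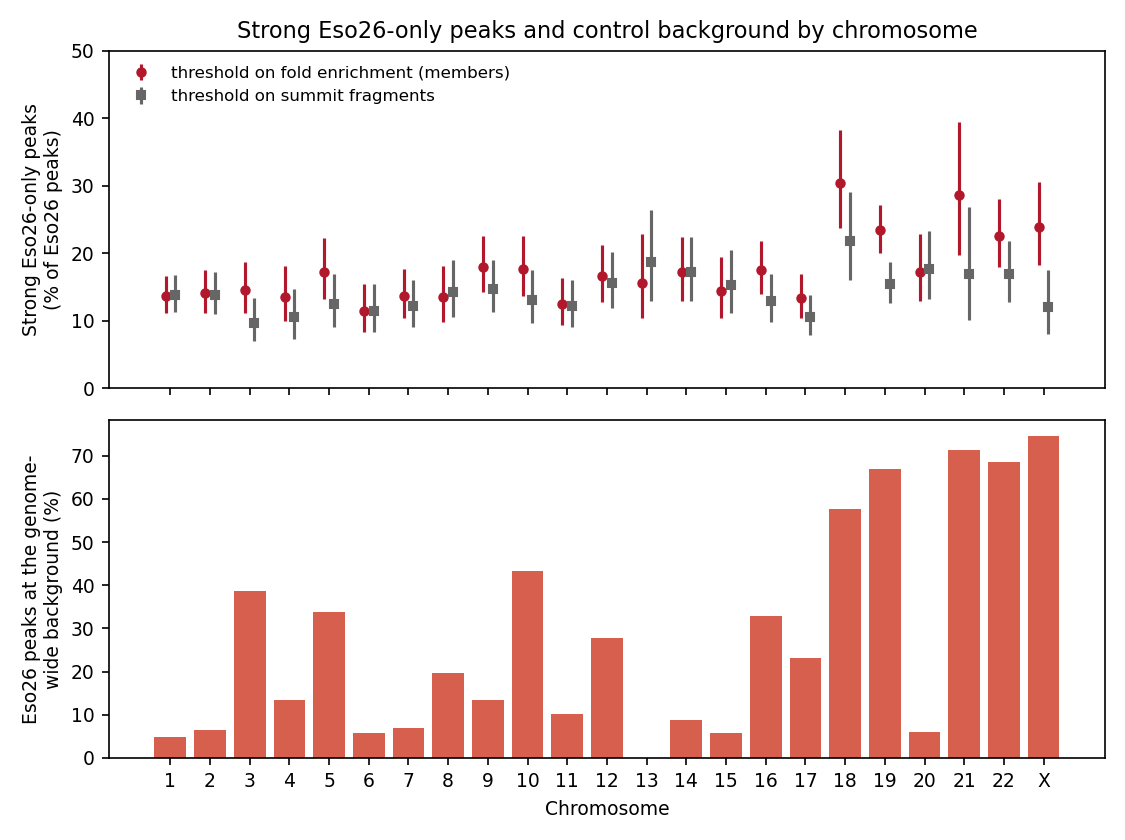
Top, strong Eso26-only peaks as a percent of all Eso26 peaks on each chromosome with Wilson 95% intervals, for the fold threshold (red circles) and for 17 or more summit fragments (grey squares). Bottom, percent of Eso26 peaks at the genome-wide background. The red points of chromosomes 18, 19, 21, 22 and X stand above the rest where the bars are highest (57.6% to 74.5%), and the grey squares there lie nearer to those of other chromosomes.

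Local background is part of the fold, so the fold threshold by itself favours a low background. Under members it was at the genome-wide level for 499 of 1149 (43.4%, 40.6 to 46.3). Of the 499, 256 were on the 5 chromosomes named above. The share was 24.5% (23.3 to 25.8) for weaker Eso26-only peaks. What lies behind that difference was not tested. Strong shared peaks, which passed the same fold threshold, had a share of 19.8% (15.99 to 24.2). The highest background of a member was 2.66 fragments at chr16:27237216-27237714, where 41 fragments gave a fold of 11.5. Next were chr9:132565345-132565724 at 1.89 and chr6:160521617-160521836 at 1.68, the latter the narrowest member with 220 bases.

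In 1-Mb windows, members fell into 750, of which 516 (68.8%) held a single one. The 19 windows with 5 or more held 110 members. The fullest was chr19:1000001-2000000 with 11 members among 51 Eso26 peaks, beside 26 OE33 peaks. There chr19:1567589-1568555 and chr19:1753309-1754839 each had 32 fragments and a fold of 22.1. The latter lay 4981 bases from a strong OE33 peak of 21 fragments. The window chr19:3000001-4000000 had 8 members among 28 Eso26 peaks and 8 OE33 peaks, none of these a strong OE33-only one, and its strongest were chr19:3959076-3959635 (26 fragments) and chr19:3028976-3029421 (24). A further 6 windows tied at 6 members. Of these, chr9:140000001-141000000 was led by chr9:140094409-140095230 with 31 fragments and chr9:140917760-140918249 with 23. In chr15:65000001-66000000, 6 of only 10 Eso26 peaks were members and OE33 had 2 peaks. Of all windows with a member, 636 (84.8%) also held an OE33 peak and 339 (45.2%) a strong OE33-only peak. These 339 are 34.0% of the 998 windows with a strong OE33-only peak. Shares over all windows with an Eso26 peak were not computed, so these values cannot be called high or low.

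The RNA libraries give the receptor levels behind these sites. They held 16866996 to 23019840 counts, and values below are CPM, counts scaled to library size and by TMM, compared for the same gene between the lines, with exact 95% counting intervals. PPARG itself was at 11.2 CPM in the Eso26 control (259 counts) and 9.41 in the Eso26 library labelled siPPARG. In OE33 it was at 130 CPM in the control and 17.8 after siPPARG. The OE33 control stood 11.6-fold (10.2 to 13.3) above the Eso26 control, so the 1149 sites come from the line with less PPARG mRNA. PPARG protein was not measured in these files. In bulk libraries fewer expressing cells and less RNA per cell cannot be told apart. The exact 95% counting intervals of the Eso26 libraries, 9.84 to 12.6 and 8.16 to 10.8 CPM, overlap. There were also no peak lists with and without siPPARG to compare, so a dependence of these sites on PPARG cannot be read from these data.

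Partners differed less. RXRA, an RXR found in most epithelia, was at 60.7 CPM in the Eso26 control and 135 in the OE33 control, 2.23-fold (2.08 to 2.38) higher in OE33, while RXRB was at 41.4 and 31.5 and RXRG had 0 counts in all libraries. PPARD, the broadly expressed relative, was at 21.03 and 188 CPM, 8.93-fold (8.12 to 9.85) higher in OE33. PPARA, the regulator of fatty acid oxidation, was at 46.7 and 80.6 CPM. Of the 5 receptor genes kept at 5 CPM, 3 (PPARG itself, PPARD and RXRA) were lower in Eso26 past 2-fold and 0 higher. Among all 11211 genes kept, 21.5% were lower and 16.3% higher past 2-fold. Of 10 coregulators, which link the receptor to transcription, 2 were lower in Eso26, MED1 (63.9 and 282 CPM) and NCOA3 (56.3 and 217), and PPARGC1A was higher (5.34 and 1.69).

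Lineage factors set the lines apart more sharply. HNF4A, a nuclear receptor of gut and liver that binds the same kind of direct repeat as PPARG with RXR, had 5271 counts in the Eso26 control and 2 in the OE33 control (227 and 0.121 CPM; ratio 1884, interval 521 to 15557). CDX1 and CDX2, the intestinal homeobox factors, were at 118 and 169 CPM in Eso26 and at 0.181 and 14.5 in OE33. FOXA1, a pioneer factor that opens chromatin, went the other way, with 26.9 CPM in Eso26 and 78.0 in OE33. Its relatives were split, with FOXA3 at 20.3 and 1.69 CPM and FOXA2 at 13.3 and 20.3 CPM in the Eso26 and OE33 controls. Of 9 lineage factors kept, 6 were higher and 1, FOXA1, lower in Eso26 past 2-fold. Of the master factors of the study, EHF was 4.30-fold (4.12 to 4.48) and KLF5 2.06-fold (1.96 to 2.17) higher in OE33, ELF3 was 1.85-fold (1.78 to 1.91) higher there, and GATA6 1.75-fold (1.57 to 1.96) higher in Eso26. Whether any of these factors bears on the members was not tested.

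**Figure D5:**
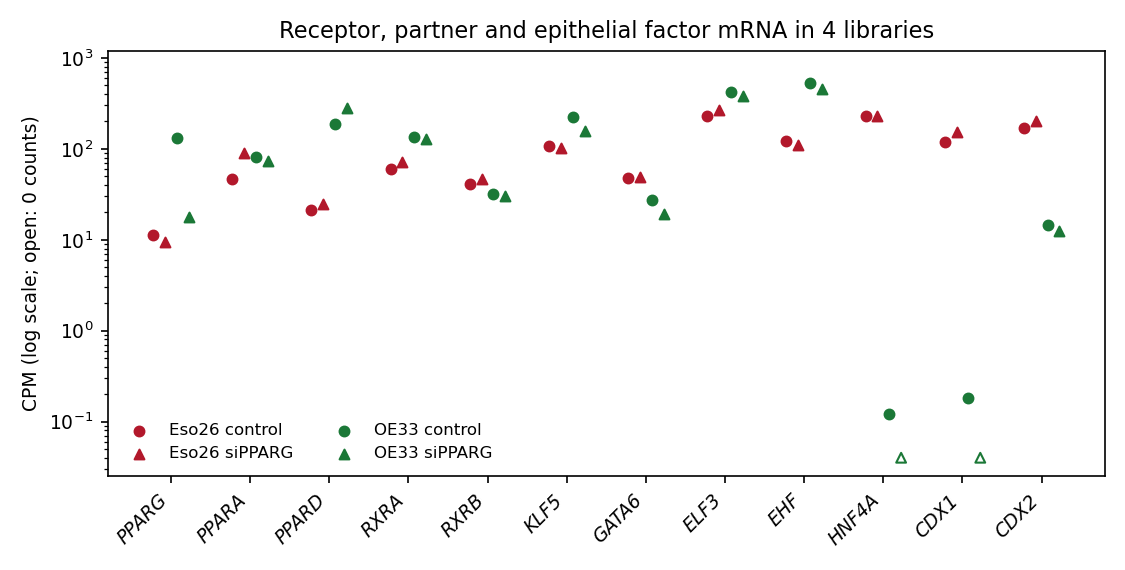
CPM on a log scale (y axis) for receptors, RXR partners and epithelial factors (x axis) in the Eso26 (red) and OE33 (green) libraries, control as circles and siPPARG as triangles; open symbols at the bottom mark 0 counts. PPARG is lowest in both Eso26 libraries (11.2 and 9.41 CPM) and highest in the OE33 control (130 CPM), and HNF4A is at 227 CPM in the Eso26 control against 0.121 in OE33.

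Of 10 columnar epithelial markers, the Eso26 control had all 10 and the OE33 control 9 at 5 CPM or more. The exception was VIL1, the brush border gene villin, at 875 CPM in Eso26 and 1.09 in OE33. Past 2-fold, 4 of the 10 were higher in Eso26, among them EPCAM (2103 and 530 CPM in the Eso26 and OE33 controls). Lower in Eso26 were 3, among them KRT19 (803 and 5359 CPM). Among all genes kept, 16.3% were higher and 21.5% lower. The 10 markers summed to 6324 and 9717 CPM. Fat cell markers summed to 0.431 and 0.121 CPM in these libraries, with ADIPOQ and FABP4 at 0, and the immune marker PTPRC was at 0 in both. Squamous markers summed to 2.59 and 13.1 CPM, in OE33 mostly KRT13 at 9.95 CPM, and mesenchymal ones to 6.68 and 4.28. Immune markers summed to 25.3 and 5.79 CPM, in Eso26 mostly LYZ at 24.6 CPM, a gene that gut epithelium also makes. The part of these markers in the members was not tested.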

How the data were processed

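Peak coordinates are on hg19, per the submitters' processing notes, which also name Trim Galore, STAR, Bowtie, Picard and MACS2 without roles. The deposited peak lists give each peak's fold enrichment (a ratio), −log10 p and −log10 q, score and summit offset as the authors' caller wrote them. For the control library, duplicates and pooling: not given in the sources used here; the peak names contain the word bwa, so the aligner is not settled. The series text speaks of triplicates, but 1 list per line and 1 column per RNA condition were used. The deposited RNA values are raw counts per gene; rows that repeat an identifier were summed. Counter and strand setting: not given in the sources used here.

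Overlap at 1 bp was computed in Python 3.11.15 and its count checked with bedtools 2.31.1. Summit fragments were solved from fold and p (tolerance 0.001 on −log10 p), tested on simulated data. Shares carry Wilson 95% intervals. Counts were scaled by TMM over 4 libraries (edgeR 4.0.16, R 4.3.3), with a prior count of 2 for log2 ratios and a filter of 5 CPM in either control library. DESeq2 1.42.0 gave alternative size factors.

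Members named are the 10 of highest fold, those at the threshold (some of 7 tied inside it), the 3 widest, the 3 farthest from and the 3 nearest to OE33 peaks, and the 2 strongest in each of the 3 fullest windows, the last of them 1 of 6 tied and taken in chromosome order. Those named for chromosomes 18 and X, background and close pairs were chosen after their values were seen. Genes are lists of receptors, coregulators, epithelial factors and markers. Some listed items are not reported here and are left out of the counts. Members and lists were chosen with earlier results of these data known.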

Additional observations from a re-analysis of the deposited data

Results flagged for a closer look

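Outside chromosomes 1 to 22 and X, which the rule leaves out, the Eso26 list held 75 peaks. Of these, 5 had a fold enrichment of 10 or more, and all 5 had no overlapping OE33 peak. They lie outside the main measurement, and whether they mark PPARG binding was not tested. Their places were not analysed here.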

How the results depend on the processing

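The number of members depends on the fold threshold, with 2320 at a fold of 8 and 223 at 15, where the shares of strong peaks without an OE33 peak were 79.7% and 68.4%. That share was 86.1% where an OE33 peak had to cover 50% of the Eso26 peak, 72.4% and 66.5% with no OE33 peak allowed within 1 or 10 kb, and 79.0% if only OE33 peaks of fold 5 or more counted. With a threshold of 17 fragments, added after seeing the data, it was 72.1%, and the share on chromosomes 18, 19, 21, 22 and X was 16.1%. At 17 fragments, 957 peaks met the rule, and 830 of these were members (86.7% of the 957 and 72.2% of the 1149). The median width was 665 bases at a fold of 15. Members with another Eso26 peak within 5 and 50 kb were 18.4% and 46.7%. A −log10 q of 10 or more left the number at 1149, and counting all sequences gave 1154. For the receptor and coregulator genes, 6 were past 2-fold under every scaling and prior count tried. Alternatives that need an hg19 genome or annotation (motifs, gene starts, nearest genes) were not run. No paired analysis was possible because every group has 1 sample; for the same reason no replicate could be left out. At 14 to 46 fragments a peak, depth limits the order of members and the side of the threshold on which a peak falls.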

Other observations

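A few members sit beside a strong site of the other line. At chr17:27920269-27920683 Eso26 had 24 fragments (fold 13.9), and 245 bases away OE33 had a peak of 28 fragments (fold 11.5) at chr17:27920929-27921484. On chromosome 19, chr19:531382-531987 had 17 fragments in Eso26, and an OE33 peak of 26 fragments ended 264 bases before it. Another case is chr9:101569988-101570374, with 22 fragments in Eso26 and an OE33 peak of 23 fragments 550 bases away. These 3 members were picked after their values were seen, for their nearness to a strong OE33-only peak.

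The strongest member on chromosome 21, chr21:48118753-48119187, had 34 fragments and a fold of 23.3. It lay 287191 bases from any other Eso26 peak and 373711 bases from the nearest OE33 peak.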
